A study of Sus scrofa with 6 samples.

Results

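Genes that foam cells use to hold lipid droplets and store cholesterol were followed in abdominal aorta of Wisconsin Miniature Swine (WMS). The list named 10 genes, PLIN2, FABP4, FABP5, LPL, LIPA, SOAT1, NPC1, NPC2, GPNMB and LGALS3. Of these, 7 were found by symbol among the 22861 genes of the deposited count table, and FABP4, LPL and GPNMB were not matched and were not analysed here. All 7 were among the 11673 genes tested. Levels are given as CPM, the count of a gene scaled to a library of fixed size. Each member stood above the 1.00 CPM used as the limit for testing in all 6 pools, so none was tested only because it was high in lesions. The lesion group was aorta that carried atherosclerotic lesions, from FH swine of this breed, in which high blood cholesterol is inherited (FH, familial hypercholesterolaemia). The control group was lesion-free aorta from normal WMS. Each group held 11 animals, whose RNA was mixed to make 3 pools, numbered 1 to 3 for lesion and 4 to 6 for lesion-free aorta. Lesion status and swine line went together, so the effects of these cannot be told apart. The labels used here give no age, sex or diet, and no list of the animals in each pool.

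A foam cell is a macrophage or smooth muscle cell that has filled with cholesterol ester. Lipoprotein cholesterol ester taken up by the cell is split by an acid lipase in the lysosome. The freed cholesterol is handed from NPC2 to NPC1 and leaves the lysosome, and at the endoplasmic reticulum SOAT1 can esterify it again. The ester is then kept in cytoplasmic droplets coated with perilipins. Fatty acid binding proteins carry the fatty acids inside the cell, and galectin-3 is a sugar-binding protein that lipid-laden macrophages make in quantity.

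Of these genes, LIPA, the lysosomal acid lipase, and LGALS3, which encodes galectin-3, rose in lesion aorta, 9.05-fold and 20.3-fold. The other 5 were not called, although each had a higher mean in lesion pools. Their fitted folds ran from 1.60 for NPC2 to 4.91 for SOAT1. Thus 2 of 7 members were called higher and 0 lower. Among all genes tested with limma, 0.968% were called higher and 0.0771% lower at an adjusted p under 0.05. The median log2 fold was 1.22 over the 7 members and -0.00 over all genes tested. All 7 had an unadjusted limma p under 0.05, each with the higher level in lesion pools. At that unadjusted limit 757 of the 11673 genes tested were higher and 484 lower. In 6 of the 7 members the lowest lesion pool stood above the highest lesion-free pool, which was so for 10.5% of all genes tested.

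The pools differed in depth, and markers of several cell types differed between the groups. Total counts were 4650176 in lesion pool 1 and between 8492673 and 11442433 in the others. Of 15 macrophage markers tested 10 were called higher and 0 lower, and their median log2 fold was 2.97. The summed level of the 17 markers found was 1494 to 2592 CPM in lesion pools and 219 to 404 CPM in lesion-free pools. CD163 and MARCO were close to 0 in both groups. Of 7 smooth muscle markers 0 were called higher and 2 lower (CNN1 and DES), at 30482 to 43961 CPM summed against 70335 to 79848 CPM. None of 9 endothelial, 9 fibroblast, 5 adipocyte, 4 nerve or 2 T cell markers tested was called, and their median log2 folds were 0.39, -0.21, -0.32, -2.02 and 2.04. Both smooth muscle calls were lost without lesion pool 1, lesion-free pool 5 or lesion-free pool 6, and with limma-trend, and 1 was left without robust moderation. At an unadjusted p under 0.05 limma gave 5 smooth muscle markers lower and 13 macrophage markers higher. Under the same limit there were 2 endothelial and 2 fibroblast markers, all higher, and 0 adipocyte, nerve or T cell markers. The summed CPM of these 5 lists ran from 532 to 681 in lesion pools against 373 to 463 for endothelium, from 7130 to 7902 against 5479 to 6823 for fibroblasts and from 47.5 to 72.0 against 43.4 to 91.4 for adipocytes. They ran from 0.192 to 7.30 against 8.13 to 12.0 for nerve and from 5.80 to 11.3 against 0.00 to 4.204 for T cells. The adipocyte hormones LEP and RETN and the receptor ACVR1C were at 0 in all 6 pools. Of 14 adipocyte markers named, 9 were in the table, and ADIPOQ, CFD, CIDEA, CIDEC and TRARG1 were not matched. The counts of 0 therefore do not show that adipocytes were absent. In bulk tissue, fewer cells of a type and less RNA per cell cannot be told apart, and the part these cell types had in the results below was not tested unless a value is given.

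The first steps of the pathway lie in the lysosome, and there the acid lipase stood apart from the carriers that take over its product. LIPA stood at 277, 80.1 and 119 CPM in lesion pools 1, 2 and 3, and at 14.9, 12.7 and 17.3 CPM in lesion-free pools 4, 5 and 6. Every lesion pool lay far above every lesion-free pool. The lesion pools spread over a 3.46-fold range while the lesion-free pools spread over 1.36-fold. The mean was 159 ± 104 CPM against 14.9 ± 2.29 CPM (SD, n = 3 each). The log2 fold was 3.18 (SE 0.48, limma adjusted p = 0.00423). LIPA was called under each of the 14 alternative settings, with adjusted p from 7.9e-05 to 0.0461.

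NPC2, the soluble lysosomal protein that binds the freed cholesterol, had the smallest fold of the 7. It stood at 335, 248 and 304 CPM in lesion pools and 227, 170 and 160 CPM in lesion-free pools. The groups did not overlap, but the lowest lesion pool was close to the highest lesion-free pool. The log2 fold was 0.68 (SE 0.26, 95% interval 0.11 to 1.24), and NPC2 was not called (limma adjusted p = 0.355). NPC1, the membrane protein that passes cholesterol out of the lysosome, stood at 66.7, 23.4 and 24.5 CPM in lesion pools and 8.08, 15.9 and 24.4 CPM in lesion-free pools. Lesion pool 1 was far above the rest, and lesion pools 2 and 3 were level with lesion-free pool 6. NPC1 was the one member whose groups overlapped. Its log2 fold was 1.07 (SE 0.49, 95% interval 0.02 to 2.12, limma adjusted p = 0.461), and it was 0.70 without lesion pool 1, 0.63 without lesion-free pool 4 and 0.47 with sample quality weights.

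**Figure D1:**
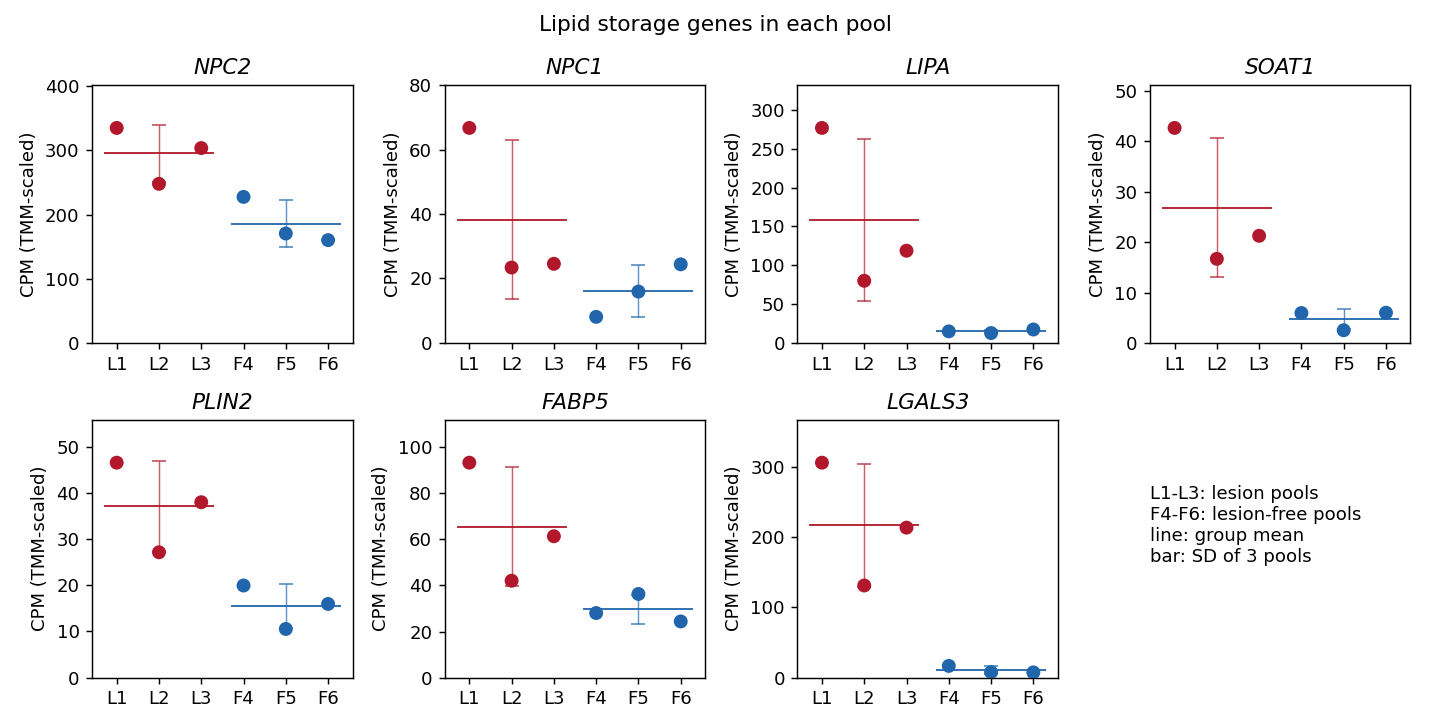
Level of each of the 7 genes in the 6 pools, in CPM of the TMM-scaled library on linear axes that start at 0; points are pools, lines are group means and bars are the SD of 3 pools. All 7 genes were highest in lesion pool 1 and, among lesion pools, lowest in pool 2, and only NPC1 had lesion pools level with a lesion-free pool.

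SOAT1, the enzyme of the endoplasmic reticulum that turns free cholesterol back into ester for storage, had a large fold that was not called. Its level was 42.7, 16.7 and 21.3 CPM in lesion pools and 5.93, 2.52 and 5.99 CPM in lesion-free pools. The groups were well apart, but both spread widely, over 2.56-fold and 2.38-fold. The log2 fold was 2.29 (SE 0.63, 95% interval 0.94 to 3.65, limma adjusted p = 0.131). Over the alternative settings the adjusted p ran from 0.0462 to 0.357, and SOAT1 was called under 1 of 14, the fit with sample quality weights.

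PLIN2, the perilipin that coats droplets in most cells other than adipocytes, stood at 46.5, 27.1 and 37.96 CPM in lesion pools and 19.9, 10.5 and 15.9 CPM in lesion-free pools. All lesion pools were above all lesion-free pools, the nearest at 27.1 and 19.9 CPM. The log2 fold was 1.22 (SE 0.38, 95% interval 0.41 to 2.03), and PLIN2 was not called (limma adjusted p = 0.205). FABP5, a fatty acid carrier of macrophages, endothelium and epithelium, stood at 93.2, 42.0 and 61.3 CPM in lesion pools and 28.0, 36.3 and 24.4 CPM in lesion-free pools. Lesion pool 2 and lesion-free pool 5 were close together. The log2 fold was 1.05 (SE 0.35, 95% interval 0.31 to 1.79, limma adjusted p = 0.242). FABP5 belongs to a family of similar small genes, among which estimated counts can be shared, so its value is less certain. Neither PLIN2 nor FABP5 was called under any of the 14 alternatives, in which the smallest adjusted p were 0.0799 and 0.0893.

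LGALS3 rose most. Galectin-3 binds galactose-bearing sugars on glycoproteins and gathers on damaged lysosomes. It stood at 305, 131 and 213 CPM in lesion pools and 16.7, 7.90 and 7.52 CPM in lesion-free pools. Every lesion pool was far above every lesion-free pool, and lesion-free pool 4 was above the other lesion-free pools. The mean was 217 ± 87.3 CPM against 10.7 ± 5.20 CPM (SD, n = 3 each). The log2 fold was 4.34 (SE 0.47, limma adjusted p = 0.000169), which ranked 107 from the highest among all genes tested. LGALS3 was called under each of the 14 alternatives, with a highest adjusted p of 0.000866.

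**Figure D2:**
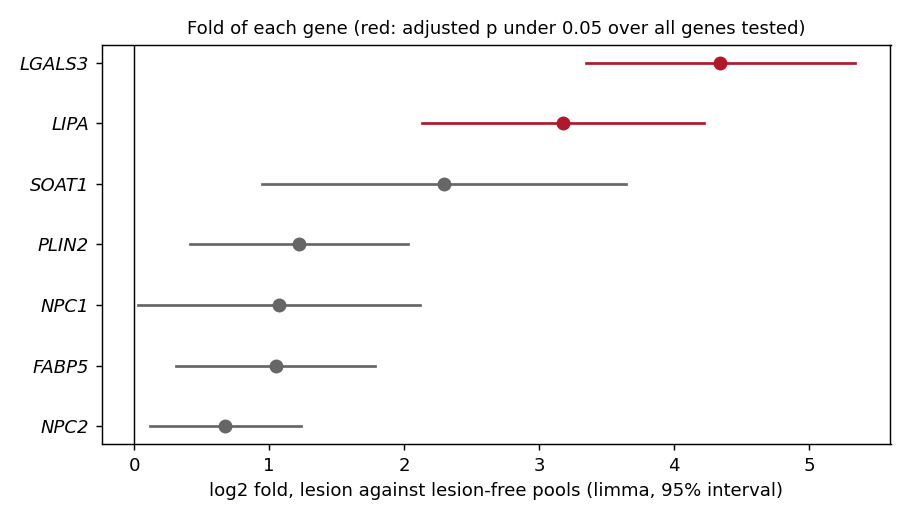
Log2 fold of each gene between lesion and lesion-free pools, fitted with limma over all genes tested, with its 95% interval; red marks the genes called. Intervals of all 7 genes lay above 0 before adjustment over all genes, and LIPA and LGALS3 were the ones called.

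The lesion pools kept 1 order over the whole set. Lesion pool 1 was the highest lesion pool for 7 of 7 members and lesion pool 2 the lowest for 7 of 7. Among all genes tested 35.3% were highest in lesion pool 1 of the lesion pools, and 17.9% had this order at both ends. Of the 113 genes called higher, 59.3% were highest in lesion pool 1, as were 7 of 15 macrophage markers. Lesion pool 1 also had the fewest counts and the lowest summed smooth muscle and nerve markers, and whether these bear on the order was not tested. Without lesion pool 1 the log2 fold was 2.71 for LIPA (limma adjusted p = 0.00162) and 4.06 for LGALS3 (limma adjusted p = 0.000488), and both were still called. It was 2.02 for SOAT1, 1.09 for PLIN2, 0.81 for FABP5 and 0.58 for NPC2, none of them called.

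Ratios of the counts of 2 genes in the same pool need no scaling of libraries. They give the levels of members relative to each other in bulk tissue, and the part of cell mix in them was not tested. For every 100 counts of NPC2 there were 82.7, 32.3 and 39.1 counts of LIPA in lesion pools and 6.54, 7.45 and 10.8 in lesion-free pools. The balance of lipase to carrier was thus 5.84-fold higher in lesion aorta by geometric means, without overlap. For SOAT1 there were 12.7, 6.74 and 7.01 counts per 100 of NPC2 in lesion pools and 2.61, 1.48 and 3.74 in lesion-free pools, a 3.47-fold difference without overlap. LGALS3 went from 7.35, 4.64 and 4.695 counts per 100 of NPC2 in lesion-free pools to 91.2, 52.8 and 70.2 in lesion pools. PLIN2 per NPC2 was 1.52-fold higher without overlap, while the ratios of FABP5 and NPC1 to NPC2 overlapped between groups.

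The ratio of LIPA to NPC1, the exporter, was 4.15, 3.42 and 4.84 in lesion pools and 1.84, 0.797 and 0.708 in lesion-free pools, again without overlap. LIPA and SOAT1 kept closer to each other. Their ratio was 6.49, 4.80 and 5.59 in lesion pools and 2.51, 5.05 and 2.88 in lesion-free pools, so that the groups overlapped. Of the 21 pairs of members 13 did not overlap between groups and 8 did. Each of the 13 had an exact permutation p of 0.1, two-sided, the smallest that 3 pools against 3 allow, and 0.162 after adjustment over the 21 pairs, so none could pass 0.05. The pairs share genes and were examined after the levels were known. Their ratios restate the levels given above. The share of pairs without overlap among all genes tested was not computed.

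**Figure D3:**
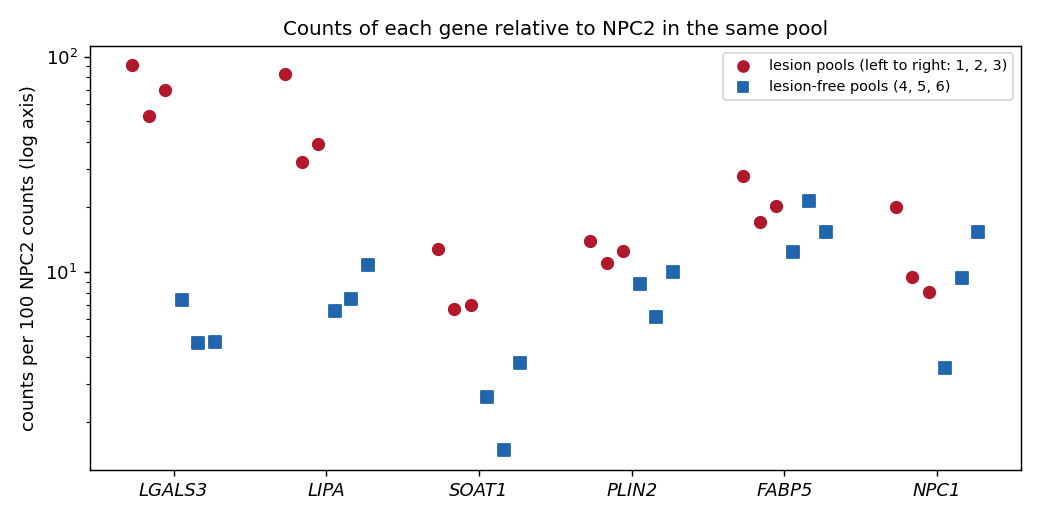
Counts of 6 genes per 100 counts of NPC2 in the same pool, on a log axis; each point is a pool. The points of a gene are to be compared between pools, since the height of one gene against another also depends on transcript length. LGALS3, LIPA, SOAT1 and PLIN2 were higher in every lesion pool than in any lesion-free pool, and FABP5 and NPC1 overlapped.

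Since all 7 genes are made by macrophages among other cells, each was also set against the mean log2 CPM of 15 macrophage markers, none of them a member. That mean was 2.88 higher in lesion pools, on the log2 scale. It included TREM2, which had 0 counts in each lesion-free pool, so its value there rested on the count added before taking logs. CD5L, with 0 counts in lesion pool 1, went the other way (log2 fold -1.80). The part of either in the 2.88 was not computed. Single markers had log2 folds of up to 4.60 for MSR1, named after its values were seen, and 7.87 for TREM2. LGALS3, with a log2 fold of 4.34, exceeded the rise of the mean but lay within the range of the single markers. Its log2 level relative to the markers was 2.40, 1.46 and 1.52 in lesion pools and 0.74, -0.03 and 0.28 in lesion-free pools, a difference of 1.47 without overlap. The relative level of LIPA was 2.26, 0.75 and 0.68 in lesion pools and 0.57, 0.65 and 1.47 in lesion-free pools, a difference of 0.33 with overlap. That difference was 0.62 without lesion-free pool 6 and turned to -0.18 without lesion pool 1. With the median over the markers in place of their mean, the difference was 0.28 for LIPA and 1.41 for LGALS3. On this scale the 3 lesion pools of LIPA lay far apart, and pools 2 and 3 were among the lesion-free values.

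SOAT1 also overlapped on this scale, with a difference of -0.43. NPC2, PLIN2 and FABP5 had lower relative levels in each lesion pool than in each lesion-free pool, with differences of -2.21, -1.61 and -1.79. For NPC1 the difference was -1.68, with overlap. The marker mean rose by 2.88 and the median log2 fold of all genes tested was -0.00. A gene that did not change between groups therefore also falls on this scale. Lower relative levels here restate that these genes rose less than the markers. The share of all genes tested without overlap on this scale was not computed. The 4 differences without overlap each had an exact permutation p of 0.1, two-sided, the smallest possible here, and 0.175 after adjustment over the 7 genes. Lesion pool 1 had the highest relative level among lesion pools for 7 of 7 members, and its mean marker level, 5.85 log2 CPM, lay between those of pools 2 and 3, at 5.57 and 6.21.

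**Figure D4:**
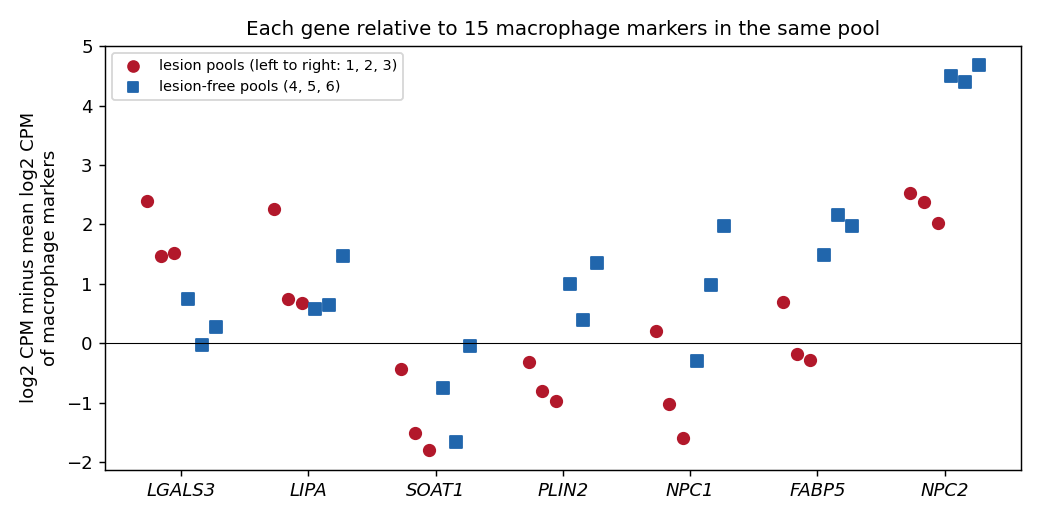
Log2 CPM of each gene minus the mean log2 CPM of 15 macrophage markers in the same pool; points are pools and 0 means the level of the average marker. LGALS3 lay higher in lesion pools, NPC2, PLIN2 and FABP5 lay lower, and LIPA, SOAT1 and NPC1 overlapped. A gene that did not change between groups also falls on this scale, since the markers rose.

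The isoform table split LGALS3 into LGALS3-001 and LGALS3-201, whose counts summed to the count of the gene. LGALS3-001 took 1479 of 1589 counts in lesion pool 1, 475 of 1467 in pool 2 and 472 of 2336 in pool 3, which is 93.1%, 32.4% and 20.2%. In lesion-free pools it took 0 of 155, 53 of 66 and 0 of 74 counts. The share therefore differed more within each group than between them. Exact 95% binomial intervals were 91.7 to 94.3%, 29.99 to 34.8% and 18.6 to 21.9% in lesion pools and 68.7 to 89.1% in lesion-free pool 5, and reached up to 2.35% in pool 4 and 4.86% in pool 6. By the usual limit of 3 counts of the total, the counts of 0 allow a share of up to 1.94% in pool 4 and 4.05% in pool 6. These intervals cover counting error only, and not the error of dividing reads between isoforms.

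The mean share of LGALS3-001 was 48.6 ± 39.0% in lesion pools and 26.8 ± 46.4% in lesion-free pools (SD, n = 3 each, exact permutation p = 0.5, two-sided). Both isoforms were higher in lesion pools, with 2426 against 53 counts for LGALS3-001 and 2966 against 242 for LGALS3-201, and the groups did not overlap in CPM for either. Neither was called (limma adjusted p = 0.659 and 0.516), where 0.418% of 12666 isoforms tested were called higher. The 95% interval of the log2 fold of LGALS3-001 ran from -2.60 to 19.0. The share of all isoforms without overlap was not computed. The other 6 members each had 1 isoform whose counts equalled the count of the gene, and of those LIPA-201 was called (limma adjusted p = 0.033).

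**Figure D5:**
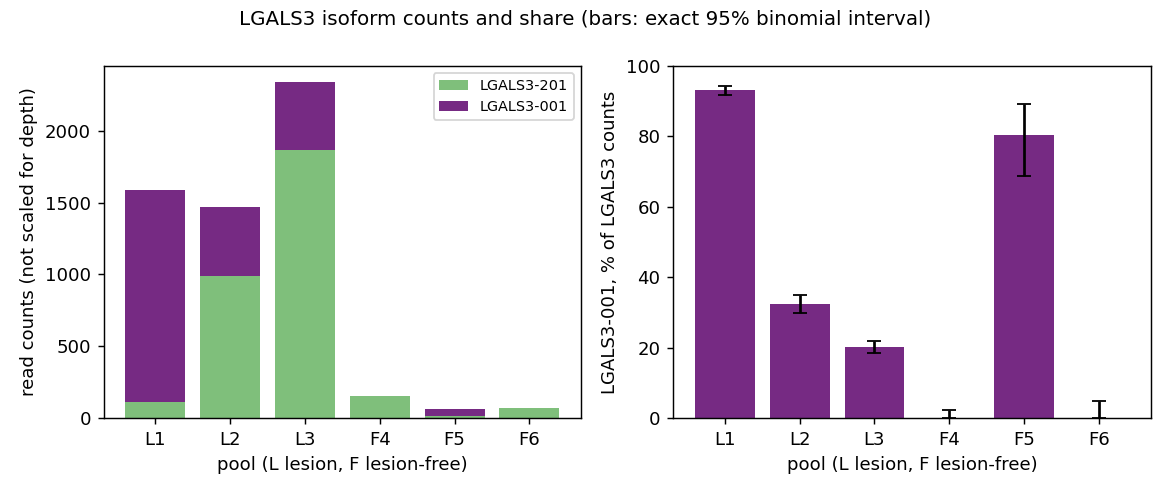
Left, read counts of LGALS3 in each pool divided between its isoforms, without scaling for depth; right, share of LGALS3-001 with its exact 95% binomial interval. The share was highest in lesion pool 1, at 93.1%, and in lesion-free pool 5, at 80.3%, and was 0 in lesion-free pools 4 and 6.

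Other genes of lipid storage and cholesterol traffic were taken from 6 lists. The lists named 119 distinct genes, of which 92 were in the table. Of their 69 distinct genes tested, 2 were called higher and 0 lower, with a median log2 fold of 0.12. Over all genes tested 0.968% were called higher and 0.0771% lower. In 15 of the 69 every lesion pool stood above every lesion-free pool, as in 10.5% of all genes tested. The called genes were CD36 and ABCA1. CD36, a scavenger receptor that takes up oxidised lipoprotein and fatty acids, stood at 142, 45.5 and 40.7 CPM in lesion pools and 2.80, 8.02 and 6.50 CPM in lesion-free pools. Every lesion pool was above every lesion-free pool, and lesion pool 1 was far above the others. Its log2 fold was 3.51 (SE 0.73, limma adjusted p = 0.036), and the call was lost without lesion-free pool 4, 5 or 6 (adjusted p 0.138, 0.127 and 0.136). ABCA1, which exports cholesterol from the cell, stood at 221, 104 and 82.1 CPM against 17.0, 26.8 and 16.9 CPM, with a log2 fold of 2.62 (SE 0.41, limma adjusted p = 0.00423). A second entry, without a symbol in the table but named ABCA1 by its identifier in the reference, was also called (log2 fold 2.52, limma adjusted p = 0.0221). CD36 and ABCA1 were both highest in lesion pool 1, as the members were.

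Of 16 genes of droplet coats, growth and breakdown none was called with limma, 0 also at an unadjusted p under 0.05, with a median log2 fold of -0.10. That list named 30 genes, of which 19 were in the table. PLIN3, DGAT2, HILPDA, PNPLA2, CIDEC and ACSL1 were among those not matched, so the result does not cover them. PLIN1, the perilipin of adipocytes, had 45 counts in lesion pools and 100 in lesion-free pools. PLIN5, the perilipin of oxidative tissues, had 6 counts in all and was not tested. Of 13 genes of fatty acid binding, uptake and lipoprotein lipase control, CD36 was called, with a median of -0.05 over the list. At an unadjusted p under 0.05 limma gave 4 of them higher, CD36 included, and 0 lower. FABP2 and FABP6 had no count. Of 4 genes of cholesterol esterification and ester hydrolysis none was called, 1 was higher at an unadjusted p under 0.05, and the median was 0.01. The esterification list named 11 genes, of which 6 were in the table. SOAT2, the esterifying enzyme of liver and intestine, had 8 counts, all in lesion pool 2. The neutral ester hydrolase NCEH1, named after its values were seen, stood at 16.5, 17.9 and 17.6 CPM in lesion pools and 4.74, 4.43 and 3.15 CPM in lesion-free pools. It differed little within groups, and its log2 fold of 2.11 was not called (limma adjusted p = 0.119).

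Of 20 genes of lysosomal cholesterol export and sterol transfer, ABCA1 was called, with a median of 0.13 over the list. At an unadjusted p under 0.05 limma gave 3 of them higher, ABCA1 included, and 0 lower. Of 13 MiT/TFE factors and lysosome genes none was called, 3 were higher and 1 lower at an unadjusted p under 0.05, and the median was 0.17. The 4 factors of the family went different ways, and all 4 are given here after their values were seen. TFEB, which drives lysosome genes, stood at 31.5, 37.8 and 44.7 CPM in lesion pools and 71.4, 52.0 and 60.6 CPM in lesion-free pools, lower without overlap but not called (limma adjusted p = 0.437). TFEC, a factor found mainly in myeloid cells, stood at 14.8, 5.62 and 4.56 CPM in lesion pools and 1.40, 0.00 and 0.203 CPM in lesion-free pools, higher without overlap and not called (limma adjusted p = 0.385). Of the lesion-free pools only pool 4 passed the 1.00 CPM limit for TFEC, so TFEC was tested through its lesion pools. TFE3 and MITF overlapped between groups and were not called, with log2 folds of -0.05 and -1.61. MITF had 2 entries, and the value is that of the entry with most counts, 34 in lesion pools and 75 in lesion-free pools. Of 6 galectins and galectin ligands tested none was called, 2 were higher at an unadjusted p under 0.05, and the median was 0.54. LGALS1, another galectin, stood at 1594, 1792 and 3188 CPM in lesion pools and 5240, 2658 and 2355 CPM in lesion-free pools, with overlap (log2 fold -0.62, limma adjusted p = 0.566). LGALS2, LGALS4, LGALS7, LGALS12 and LGALS13 had no count in any pool.

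For each member, the 3 genes with the most similar profile were found over the 6 pools. Likeness was the root mean square difference of log2 CPM after each gene was centred on its own mean. The closest to LGALS3 were CTSS (0.21), a lysosomal protease of antigen presentation, SCIN (0.25), an actin-severing protein, and CH242-168I5.2 (0.27), all 3 called higher. The closest to LIPA were SNX10 (0.17), an endosomal sorting protein that was not called, C5AR1 (0.32), the receptor for complement C5a, and RARRES1 (0.34), both called higher. SOAT1 was nearest to ASAH1 (0.15), the lysosomal acid ceramidase, which was called higher 4.72-fold, and to MBNL3 (0.18) and PRRG4 (0.19), which were not.

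PLIN2 was nearest to ICAM-1 (0.16), an adhesion molecule, SDC2 (0.17), a syndecan, and the galectin gene LGALS8 (0.19). FABP5 was nearest to STMN1 (0.07), a regulator of microtubules, C9orf72 (0.13) and CDK19 (0.17). NPC2 was nearest to CTSK (0.08), a collagen-degrading protease, HTRA1 (0.09), a secreted protease, and SEPT6 (0.10). NPC1 was nearest to PRKAR2A (0.23), ZNF33B (0.24) and MDM2 (0.24). None of these 12 neighbours was called. Among the members themselves the closest profiles were those of FABP5 and NPC2 (0.37), PLIN2 and NPC2 (0.38) and PLIN2 and FABP5 (0.44). LIPA and SOAT1 came next (0.50), and the farthest apart were NPC2 and LGALS3 (1.86).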

How the data were processed

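RNA of 6 pools of abdominal aorta was sequenced from a stranded total RNA library, per the labels' protocols. The authors deposited raw read counts per gene and per isoform. The submitters' processing notes name RSEM 1.3.0 and edgeR without saying what each did. The sources used here do not state the aligner, genome build or annotation, so no coordinates are printed. Commas between groups of digits were removed. Because of the commas the columns were recorded as another unit than counts, and count models were not used.

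A gene was tested if at least 3 pools reached the CPM that 10 counts make at median depth, and all pools together 15 counts. Library sizes were TMM-scaled, with 30% of M values and 5% of A values trimmed. Log2 CPM with 0.5 added to each count was fitted with limma 3.58.1 in R 4.3.3, with voom weights and robust moderation, for lesion against lesion-free pools. P-values are two-sided and adjusted by Benjamini and Hochberg over all genes or isoforms tested, and a gene under 0.05 is called. They measure the spread between 3 pools a group, not between animals. The fit was tested on simulated data. Pools of a group differed far beyond sampling noise (chi-square per degree of freedom 23.4 to 104).

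A total of 3 counts equals 0.577 CPM in lesion pool 1 and 0.268 to 0.359 CPM in the others. Levels of different genes were not compared, since transcript lengths were not used here. Lists were matched by symbol, or by identifier where the table gives no symbol, and the entry with most counts was used where a symbol had several. Named genes are the members, up to 3 called genes per list, the 3 nearest profiles of each member, genes that define a list (such as PLIN1, SOAT2, LGALS1, CD163 or LEP), whose level or absence is given, and others said to be chosen afterwards. Genes listed as without counts, and PLIN5, were chosen for their low counts. In the table the members carry the identifiers ENSSSCG00000010450 (LIPA), ENSSSCG00000002366 (NPC2), ENSSSCG00000003707 (NPC1), ENSSSCG00000021464 (SOAT1), ENSSSCG00000005171 (PLIN2), ENSSSCG00000006153 (FABP5) and ENSSSCG00000005055 (LGALS3). The identifier of PLIN2 is not the one the reference gives for that symbol, and the other 6 are the same. A planned search for promoter motifs was not run, and no sequence was used here. The members and lists were chosen with earlier results of these data known. The count ratios and the isoform shares were added after the data were seen.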

Additional observations from a re-analysis of the deposited data

How the results depend on the processing

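Over 14 alternatives (8 settings and each pool left out in turn), the number of members called higher was 2 in 13 and 3 with sample quality weights, and 0 were called lower in each. Leaving out a pool gave log2 folds of 2.71 to 3.60 for LIPA and 4.06 to 4.71 for LGALS3. SOAT1 was the member added with sample quality weights (log2 fold 2.12, adjusted p = 0.0462). NPC1, called in none, had log2 folds from 0.47 with sample quality weights to 1.47 without lesion-free pool 6. Over all genes, 113 were higher and 9 lower. Without the low-count filter 171 were higher and 17 lower, with sample quality weights 213 and 40, and with an added count of 2 there were 15 lower. Leaving out a pool gave 54 to 143 higher and 3 to 33 lower genes. The higher genes numbered 63 without lesion-free pool 5 and 54 without lesion-free pool 6. The lower genes numbered 5 without lesion pool 1, 33 without lesion pool 3, and 17, 4 and 3 without lesion-free pools 4, 5 and 6. On the other lists, 2 genes were called higher in the main analysis, 4 without the filter, 4 with an added count of 2, 5 with quality weights and 1 to 2 with a pool left out. The cause of these moves was not tested. Scaling by library totals alone moved the median log2 fold of all genes to 0.16, against -0.00, and changed no member's direction or call. The level of LIPA relative to macrophage markers turned from 0.33 to -0.18 without lesion pool 1 and was 0.62 without lesion-free pool 6. Levels on that scale were run under 8 alternatives, and no other direction turned. Each LGALS3 isoform was run under 12 alternatives. Adjusted p over these ran from 0.209 to 0.826 for LGALS3-001 and from 0.0954 to 0.813 for LGALS3-201. With 3 pools a group, exact tests of single values cannot pass 0.05.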

Other observations

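The following 3 genes, on the lists of macrophage markers, fatty acid genes and lysosome genes, were named after their values were seen. TREM2, a lipid-sensing receptor of macrophages, summed to 386 counts over lesion pools and 0 over lesion-free pools, and stood at 8.27, 9.64 and 21.4 CPM in lesion pools 1, 2 and 3 (limma adjusted p = 0.0564). PPARG, the nuclear receptor that responds to fatty acids, had 253 counts in lesion pools and 11 in lesion-free pools (limma adjusted p = 0.259). ATP6V0D2, a macrophage subunit of the lysosomal proton pump, had 211 counts and 0 (limma adjusted p = 0.112). None of these 3 was called. All 3 were below the 1.00 CPM limit for testing in every lesion-free pool. They were thus tested only because they were high in lesion pools, and their direction is no separate result.

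Names in the isoform table did not always follow the gene table. Of 10838 symbols compared, 2089 (19.3%) had isoforms whose counts summed to more or less than the count of the gene, by over 1 in at least 1 pool. PLIN5 had 6 counts as a gene, while the 3 transcripts named for it held 9157. FABP7 had 18 counts as a gene, while the 4 transcripts named for it held 15190. A further transcript carried the name PLIN2-201, with 19, 52 and 46 counts in lesion pools and 27, 27 and 38 in lesion-free pools, outside the 1392 counts of the gene PLIN2. Which gene such transcripts belong to was not tested, and they entered none of the results above.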
